A study of Mus musculus with 8 samples.

Results

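The 5 libraries described here are leukaemia cells from mice on the standard amino acid diet, chosen by their diet label from the 8 libraries of the series. The cells carry MLL-AF9, in which the amino end of the histone methyltransferase MLL is joined to AF9, and are labelled as wild type in genotype and as acute myeloid leukaemia. They also express green fluorescent protein (GFP) and, from the beta-actin promoter, luciferase. They came from 1 terminally ill mouse and were expanded in culture with stem cell factor, interleukin 3 and interleukin 6, so all 5 libraries share 1 leukaemia. For each recipient, a male aged 8 to 10 weeks of unstated strain, 1000000 cells were given intravenously without conditioning. Once the leukaemia burden was high, 5+3 chemotherapy was given, with 5 daily doses of cytarabine (100 mg/kg) and, over the first 3 of those days, doxorubicin (3 mg/kg), and the mice were killed when the response was at its maximum. Living GFP-positive cells were sorted from crushed bones. No untreated library and no normal marrow library is compared here, so all values below are levels in treated leukaemia cells and show no effect of the drugs or of the diet. The labels call the libraries biological replicates, and they are numbered 1 to 5 as labelled.

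MLL-AF9 turns myeloid progenitors into leukaemia cells. The fusion protein binds MLL target genes and recruits elongation factors and the H3K79 methyltransferase Dot1l, which keeps the homeobox genes of the HoxA cluster and their partner Meis1 transcribed after the stage at which normal cells silence them. In normal granulocyte development, promyelocytes make primary granule proteins such as myeloperoxidase, while myelocytes and later neutrophils make secondary granule proteins such as lactoferrin, and the calcium-binding pair S100A8 and S100A9 in the cytosol. Transcription factors of the C/EBP family and PU.1, an ETS factor encoded by Spi1, drive both stages.

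The regions just before the start sites of the granule genes are shown first, because they include the most abundant lineage genes and the list that differed most between libraries. For each granule list the 3 members with the highest level per length are given, as the 250 bases before the RefSeq start site in GRCm38.p6, read in the direction of the gene. Capitals mark matches on either strand to a core motif of C/EBP factors (TTGCNNAA) or of PU.1 (GAGGAA).
Mpo (primary granule, chr11:87793534-87793783, plus strand): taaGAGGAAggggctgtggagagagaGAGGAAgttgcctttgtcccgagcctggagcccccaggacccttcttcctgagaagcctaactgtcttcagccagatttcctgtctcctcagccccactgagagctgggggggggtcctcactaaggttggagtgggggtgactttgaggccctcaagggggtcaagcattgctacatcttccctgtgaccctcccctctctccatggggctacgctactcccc
Elane (primary granule, chr10:79886062-79886311, plus strand): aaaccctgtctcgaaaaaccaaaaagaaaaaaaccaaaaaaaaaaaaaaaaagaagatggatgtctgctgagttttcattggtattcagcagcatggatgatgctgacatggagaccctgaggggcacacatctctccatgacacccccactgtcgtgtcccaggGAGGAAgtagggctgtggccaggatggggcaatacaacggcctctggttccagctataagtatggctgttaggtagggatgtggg
Ctsg (primary granule, chr14:56102575-56102824, minus strand): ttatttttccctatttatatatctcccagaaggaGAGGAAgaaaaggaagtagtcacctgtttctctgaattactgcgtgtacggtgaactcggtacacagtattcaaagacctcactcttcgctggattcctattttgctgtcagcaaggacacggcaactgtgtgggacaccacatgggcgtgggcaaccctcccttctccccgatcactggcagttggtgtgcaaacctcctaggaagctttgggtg
S100a9 (secondary granule and mature neutrophil list, chr3:90695722-90695971, minus strand): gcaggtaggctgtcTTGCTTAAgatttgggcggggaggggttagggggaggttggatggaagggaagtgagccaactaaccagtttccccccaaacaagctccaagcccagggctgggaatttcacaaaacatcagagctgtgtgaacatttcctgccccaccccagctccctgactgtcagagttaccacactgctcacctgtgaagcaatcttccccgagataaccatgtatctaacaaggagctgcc
S100a8 (secondary granule and mature neutrophil list, chr3:90668821-90669070, plus strand): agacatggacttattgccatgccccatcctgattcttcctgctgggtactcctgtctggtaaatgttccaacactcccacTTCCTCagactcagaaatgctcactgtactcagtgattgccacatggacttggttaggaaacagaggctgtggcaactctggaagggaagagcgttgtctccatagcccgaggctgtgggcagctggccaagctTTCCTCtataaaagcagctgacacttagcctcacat
Ngp (secondary granule and mature neutrophil list, chr9:110419558-110419807, plus strand): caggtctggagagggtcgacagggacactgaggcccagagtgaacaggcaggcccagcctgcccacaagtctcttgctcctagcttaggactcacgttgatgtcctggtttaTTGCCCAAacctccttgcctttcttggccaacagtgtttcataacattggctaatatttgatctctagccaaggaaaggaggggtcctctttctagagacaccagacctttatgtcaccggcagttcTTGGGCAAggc
The PU.1 letters lie 247 and 224 bases before the start of Mpo, 85 bases before Elane, 216 bases before Ctsg, and 170 and 36 bases before S100a8. The C/EBP letters lie 236 bases before S100a9 and 138 and 11 bases before Ngp, and no matches overlap in these 6 windows. GAGGAA was found in 23.3% of all 32851 such windows and TTGCNNAA in 9.56%. Of the primary granule list, 12 of 15 genes matched a window, of which 7 held GAGGAA and 1 held TTGCNNAA. Of the secondary granule and mature neutrophil list, 16 of 18 matched, of which 9 held GAGGAA and 8 held TTGCNNAA. A match describes the letters and is not evidence of binding.

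Library totals ran from 16588662 to 38966911 counts, and 14498 to 17428 of 27179 gene identifiers had a count. Levels within a gene are given as counts per 1000000 counts of the library (CPM). Levels of different genes are compared only per length, as counts per kilobase of exon, scaled to a sum of 1000000 in each library (TPM), over the 21572 identifiers with an exon length. A gene is taken as expressed when it had at least 1 CPM in all 5 libraries, which 11276 of the 27179 identifiers did. Every count of expressed list members below is to be read beside that share. A mean of 1000 CPM or more was reached by 53 genes. The 100 most abundant identifiers of a library held 14.4% to 16.7% of its counts. The most abundant one of all, identifier 100861531, has no symbol in the gene table used here and took 0.472% to 2.46% of the counts of a library. It was lowest in replicate 5, as was identifier 19791, at 989 CPM there and 2988 to 4956 CPM in the other libraries. The exon length behind an average count was 4395 bases in replicate 2 and 4024 to 4108 bases in the other libraries, so values of replicate 2 stand somewhat higher per length than in CPM.

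The 3 genes that mark these leukaemia cells were expressed in every library. Mpo, the myeloperoxidase of primary granules (gene 17523, GRCm38 chromosome 11, 87793784 to 87804412), was at 9869, 8237, 7327, 9820 and 8225 CPM in replicates 1 to 5, a mean of 8696 ± 1112 CPM (SD, n = 5). Hoxa9, the central HoxA factor of these leukaemias (gene 15405, chromosome 6, 52223097 to 52227370), was at 180, 198, 160, 159 and 167 CPM, a mean of 173 ± 16.4 CPM. Meis1, the homeobox partner of Hoxa9 (gene 17268, chromosome 11, 18880428 to 19019651), was at 123, 145, 128, 119 and 120 CPM, a mean of 127 ± 10.6 CPM. Mpo varied by at most 1.35-fold between the libraries and was lowest in replicate 3, while Hoxa9 and Meis1 were highest in replicate 2.

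Mpo also had the highest mean of all genes per length, at 11087 ± 1353 TPM (SD, n = 5). Elane, neutrophil elastase, followed at 8235 ± 1193 TPM, and Ctsg, the primary granule protease cathepsin G, ranked 5 at 6764 ± 901 TPM. S100a9 ranked 4 at 7217 ± 4773 TPM and S100a8 ranked 7 at 5556 ± 4236 TPM, each with a far wider spread than the protease genes. In replicate 3, S100a9 at 15125 TPM and S100a8 at 12737 TPM were above Mpo at 9192 TPM. Prtn3, proteinase 3, ranked 14 at 3381 ± 608 TPM. The others of the first 20 were genes of translation (Eef1a1, Eef2, Rpl4, Rpl8, Rps15 and Rps27rt), chaperones (Hsp90ab1 and Calr), Actb, the light chain of MHC class I B2m, the signalling regulator Arhgdib, the myeloid gene Plac8, the prostaglandin-degrading enzyme Hpgd and the glutathione peroxidase Gpx1. Among the first 100 genes per length, 7 were on the primary granule list and 14 encode ribosomal proteins. The 15 primary granule genes together held 3.58% of the summed level per length, and the 110 expressed ribosomal protein genes, taken by symbol pattern, 5.48%. With coding length in place of exon length, 14 of the first 20 genes were shared, Plac8 ranked 1, Mpo 2, Elane 11 and Ctsg 16.

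**Figure D1:**
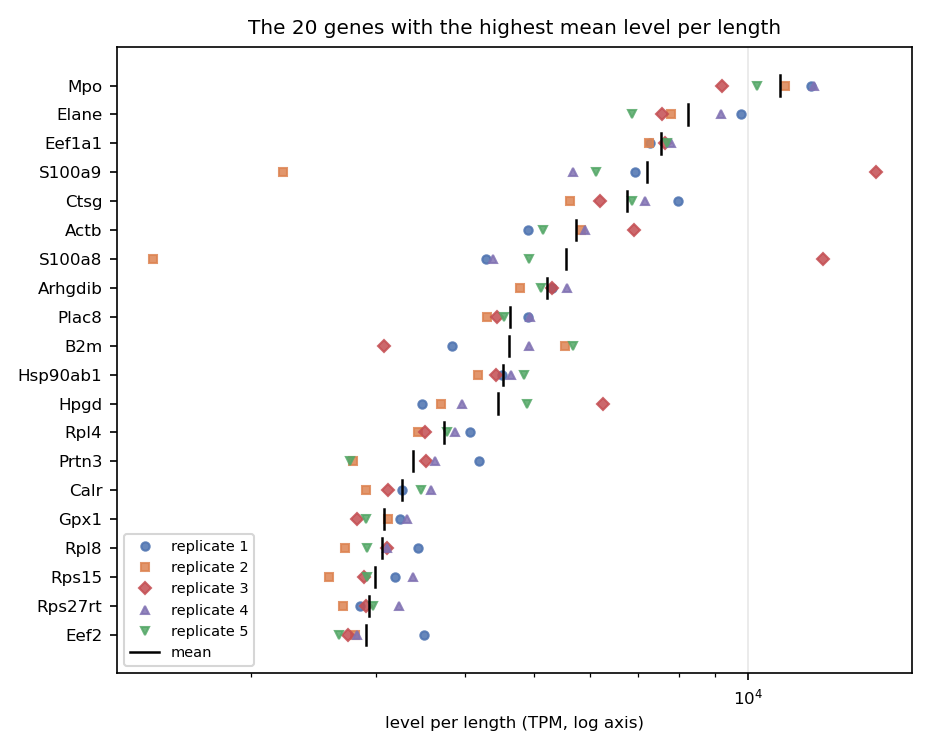
Level per length (TPM, log axis) of the 20 genes with the highest mean, with 1 point for each of the 5 libraries and a bar at the mean. Mpo leads at a mean of 11087 TPM, and S100a9 and S100a8 have the widest spread, with replicate 3 highest and replicate 2 lowest.

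In raw CPM, where long genes weigh more, the first 20 identifiers also held the poly(A)-binding protein Pabpc1 (2782 ± 99.7 CPM), the translation factor Eif4g2 (2724 ± 274 CPM), the nucleolar protein Ncl (2701 ± 416 CPM) and the chaperone Hsp90b1 (2359 ± 273 CPM). They also held the RNA-binding Hnrnpa2b1 and Hnrnpu, the actin cross-linker Flna and the proliferation marker Mki67. Xist and Lars2, which are taken up below, completed them. Gapdh, a common reference gene, was at 67.8 ± 11.9 CPM. Gapdh was named after its value was seen. It has near-identical copies in the genome, and no source used here says how reads with several matches were counted, which makes this level uncertain, and those of ribosomal protein genes likewise.

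The HoxA cluster was expressed over most of its length, and the other Hox clusters were close to silent. Of 11 HoxA genes, 8 were expressed. Per length, Hoxa5 led at 217 ± 64.2 TPM, followed by Hoxa10 at 148 ± 15.5 TPM, Hoxa9 at 136 ± 18.2 TPM and Hoxa6 at 96.2 ± 21 TPM. The order of Hoxa10 and Hoxa9 differed between libraries, while Hoxa5 was above Hoxa10, and Hoxa9 above Hoxa6, in every library. Hoxa11 stayed below 1 CPM in all libraries and Hoxa13 had no count. Of 10 HoxB genes, Hoxb4 at 7.04 ± 1.2 CPM and Hoxb13 at 1.72 ± 0.299 CPM were expressed, and 7 were below 1 CPM everywhere. All 18 HoxC and HoxD genes were below 1 CPM everywhere, and 11 of them had no count, where 3 counts, taken as the limit a count of 0 allows, correspond to 0.077 to 0.181 CPM. The summed HoxA level was 432, 569, 441, 444 and 463 CPM in replicates 1 to 5. Replicate 2 stood above the others, and 7 of the 8 expressed HoxA genes were highest there, beside 25.9% of all expressed genes. Hoxa5 shows this most, at 132 CPM in replicate 2 and 75.7 to 90.8 CPM elsewhere.

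Among 19 further genes known as direct targets of MLL fusions, 16 were expressed. Lmo2, a bridging factor of blood transcription complexes, had the highest level per length, at 1253 ± 90.5 TPM, and was at 624, 645, 580, 616 and 639 CPM. Myb, the progenitor factor on which these leukaemias depend, was at 586 ± 110 TPM, Myc at 380 ± 41 TPM, and the histone demethylase gene Jmjd1c at 155 ± 29.9 TPM. Some targets of the list were low. Zfp521 was below 1 CPM in every library, and Mef2c, named after its value was seen, was at 3.84 ± 2.03 CPM. All 14 cofactors of the fusion on the list were expressed, led by Kmt2a (167 ± 38 TPM), which encodes MLL, the acetyltransferase gene Kat7 (143 ± 9.81 TPM), the elongation factor gene Aff1 (138 ± 17.3 TPM) and Psip1 (108 ± 15.6 TPM), whose product tethers MLL to chromatin. How reads from the fusion were counted is not given in the sources used here.

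Primary granule genes were high in every library. All 15 were expressed, with summed levels of 18895, 14782, 15787, 18420 and 15997 CPM, a mean of 16776 ± 1786 CPM (SD, n = 5). This sum differed by at most 1.28-fold between libraries. Elane was at 2257, 1634, 1734, 2089 and 1578 CPM, Prtn3 at 1704, 1029, 1424, 1460 and 1114 CPM, and Ctsg at 1932, 1237, 1492, 1717 and 1652 CPM. All 3 proteases were highest in replicate 1, and replicate 2 was the lowest for Prtn3 and Ctsg and the second lowest for Elane. Ms4a3, a membrane protein of granulocyte and monocyte progenitors, moved more, at 276, 119, 418, 276 and 223 CPM. Replicate 2 was the lowest library for 9 of the 15 genes, beside 27.5% of all expressed genes.

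Secondary granule and mature neutrophil genes differed far more between the libraries. Their sum was 3210, 1057, 7166, 2671 and 3061 CPM, so that replicate 3 was 6.78-fold above replicate 2 and the other libraries lay between them, close together. Of 18 genes, 16 were expressed, and their median SD of log2(CPM + 0.5) was 0.98, beside 0.20 for all expressed genes. The 2 others, Ly6g, the surface marker of mature mouse neutrophils, and Cxcr2, a chemokine receptor that draws neutrophils to the blood and named after its values were seen, were below 1 CPM in replicate 2 alone. Replicate 3 was the highest library for 14 of the 16 expressed genes, beside 12.7% of all expressed genes, and replicate 2 the lowest for 15 of the 16.

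The members moved in near parallel. S100a8 was at 698, 216, 2058, 704 and 796 CPM, and its partner S100a9 at 850, 247, 1838, 687 and 745 CPM. Ngp, neutrophilic granule protein, was at 510, 137, 1050, 401 and 463 CPM, and Ltf, lactoferrin, at 289, 71.4, 537, 187 and 220 CPM. Replicates 1, 4 and 5 lay within a narrow band for these genes, with replicate 3 above and replicate 2 below. Chil3, a chitinase-like protein of myeloid cells, had the same order of extremes with a smaller range, at 303, 156, 532, 249 and 337 CPM. Ly6g was low throughout, at 2.34, 0.45, 3.89, 1.3 and 2.17 CPM, with 8 counts in the lowest library. Without replicates 2 and 3 the summed level was 2981 CPM, after 3433 ± 2255 CPM with all 5 libraries.

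**Figure D2:**
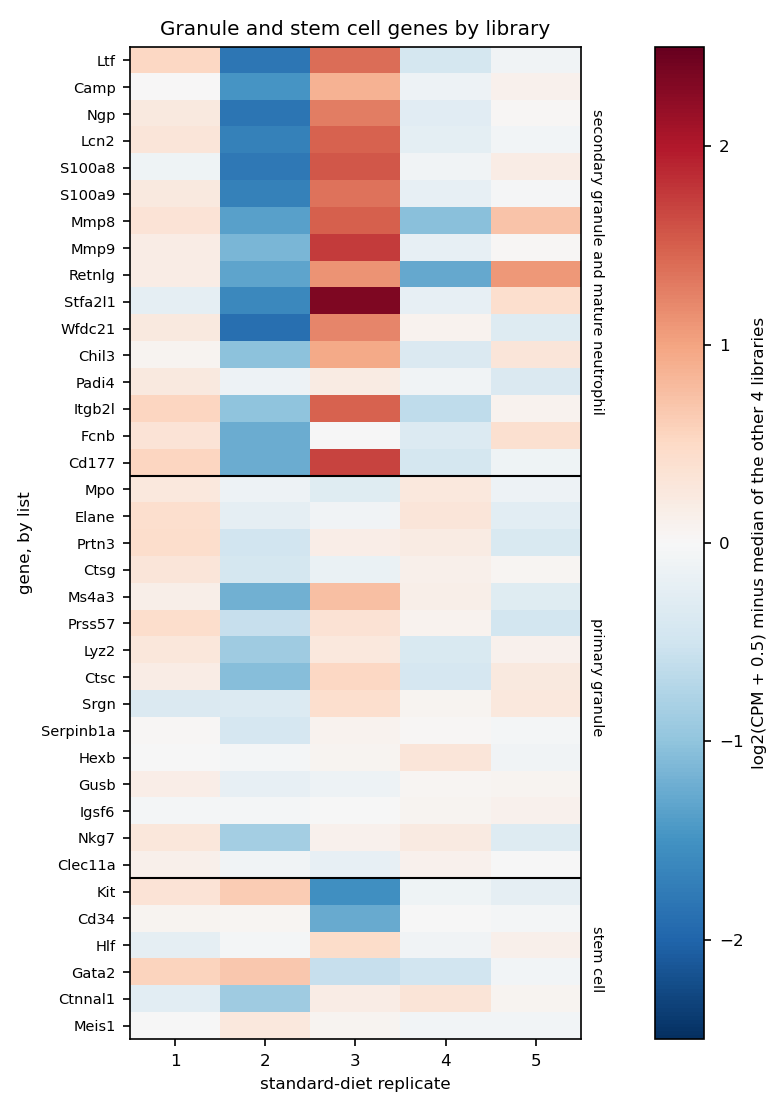
Difference of each library from the median of the other 4, on the log2(CPM + 0.5) scale, for the expressed genes of the secondary granule and mature neutrophil, primary granule and stem cell lists (rows) in the 5 replicates (columns). Most secondary granule and neutrophil genes are red in replicate 3 and blue in replicate 2, while Kit and Cd34 are blue in replicate 3.

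Among stem cell genes, Kit and Cd34 were far lower in replicate 3 than elsewhere, but the list did not move as 1: replicate 3 was the lowest library for 3 of its 6 expressed genes and the highest for 1, beside 24% and 12.7% of all expressed genes. Kit, the receptor for stem cell factor, was at 182, 223, 56.2, 148 and 140 CPM. Cd34, the sialomucin of stem and progenitor cells, was at 155, 153, 62.8, 148 and 146 CPM. Replicate 3 was the lowest library for both, and the other 4 libraries lay close together for Cd34 but were more spread for Kit. Gata2, a stem and mast cell factor, was at 18.4, 19.9, 10.5, 11.2 and 13.6 CPM. Irf8, the factor of monocyte and dendritic cell fate, was at 17.8, 26.9, 4.77, 14 and 18.5 CPM, again lowest in replicate 3. Meis1 was not low there, and Prom1, a progenitor surface gene named after its values were seen, was highest there, at 73.3, 44.7, 95.1, 61.7 and 65.4 CPM. In bulk libraries fewer cells of a type and less RNA per cell cannot be told apart. Other genes differed between the libraries as well. Replicate 3 was highest for the immunoglobulin genes Ighm, Jchain and Igkc but lowest for the B cell receptor genes Cd79a and Cd79b. The Y-linked Ddx3y was at 3.75, 1.97, 5.04, 2.47 and 6.03 CPM, highest in replicate 5. The origin of these transcripts, and any link to the granule and progenitor differences, was not tested.

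Most stem cell genes were low. Of 17 stem cell genes 6 were expressed, beside 11276 of all 27179 identifiers. Cd34, Kit, Meis1 and Gata2 were the 4 highest per length (79.9, 74.1, 52.7 and 12 TPM). Slamf1 and Procr, surface markers of long-term stem cells, were below 1 CPM in every library. All 17 genes of the myeloid progenitor list were expressed. Cebpa, which commits cells to the granulocyte and monocyte lineage, was at 82.9 ± 14.6 CPM, Spi1 at 145 ± 20.5 CPM, Gfi1, which favours granulocytes, at 167 ± 20.7 CPM, and Cebpe, the factor of secondary granules, at 54.2 ± 9.25 CPM. Cebpe was at 67.7, 44.7, 48.9, 59.4 and 50.5 CPM in replicates 1 to 5. It was thus lowest in replicate 2 but not highest in replicate 3, unlike most secondary granule and neutrophil genes.

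Of 43 lineage transcription factors 32 were expressed, led per length by Lmo2, Myb, Lyl1 (384 ± 67.2 TPM), a partner of Lmo2, and Cbfb (288 ± 44.3 TPM), the shared subunit of Runx complexes. Gata3 of T cells, Gfi1b of erythroid cells and platelets, and the immediate early factor Egr1 were below 1 CPM everywhere. Bcl11b, known as a T cell factor, was expressed, at 12.9, 21.5, 18.4, 17.7 and 15.5 CPM. Of other T cell genes, Lck was expressed at 2.64, 1.97, 1.56, 2.47 and 4.04 CPM. Cd3d, Cd247 and Cd4 were below 1 CPM in every library. Cd3e and Cd3g were at 1.87 and 1.99 CPM in replicate 5 and below 1 CPM elsewhere.

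Monocyte genes were mixed. The 12 expressed of 17 included the monocyte surface gene Ly6c2 at 280, 285, 143, 293 and 236 CPM, lowest in replicate 3, Ms4a6c at 101, 127, 118, 124 and 137 CPM, and the coagulation subunit F13a1 at 220, 189, 152, 164 and 195 CPM. Cd14, a co-receptor for bacterial lipopolysaccharide on mature monocytes, was low at 4, 3.26, 2.86, 3.36 and 1.69 CPM. The macrophage list had 11 of 16 genes expressed, and its 2 highest levels were those of the adhesion genes Adgre1 (155 ± 55 TPM), which encodes F4/80, and Vcam1 (107 ± 8.05 TPM). Apoe (31.7 ± 4.75 TPM) and Hmox1 (25.4 ± 8.9 TPM) followed, and Timd4, a marker of resident macrophages, was below 1 CPM.

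**Figure D3:**
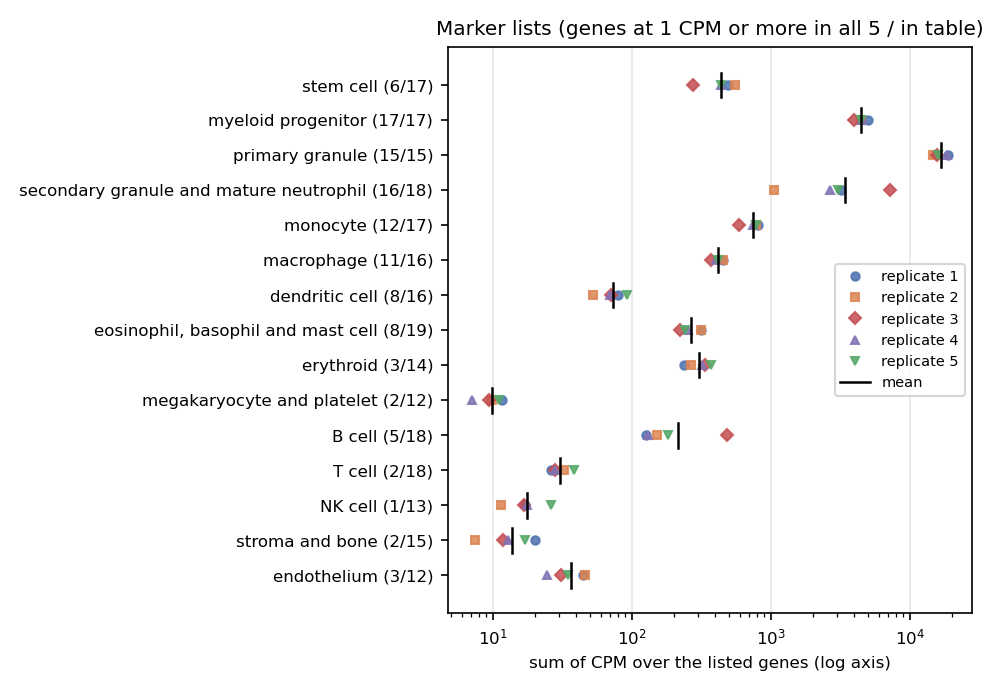
Sum of CPM over the genes of 15 marker lists of maturation stages and other marrow cells (log axis), with 1 point for each library and a bar at the mean. Labels give the expressed genes out of those in the table. The primary granule sum lies between 14782 and 18895 CPM, the secondary granule and mature neutrophil sum ranges from 1057 to 7166 CPM, and the B cell sum of replicate 3 stands apart.

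Receptors for myeloid growth factors and cytokines were broadly present, and 28 of 34 were expressed. Per length the highest was Ifngr1, a chain of the interferon gamma receptor, at 602 ± 98.6 TPM, then Csf2ra, the alpha chain of the receptor for granulocyte-macrophage colony-stimulating factor, at 252 ± 62.8 TPM. Csf3r, the receptor for granulocyte colony-stimulating factor, was at 179 ± 23.4 TPM. The interferon receptor chain Ifnar2 was at 157 ± 17.8 TPM, below Csf3r in every library. Csf2rb, the signalling chain shared by the receptors for interleukins 3 and 5 and granulocyte-macrophage colony-stimulating factor, was at 207, 164, 226, 160 and 120 CPM, and Il3ra, the alpha chain for interleukin 3, at 19.8, 20.3, 10.4, 17 and 13 CPM. Csf1r, the receptor of the macrophage growth factor, was at 39.8, 33.7, 18.9, 29.5 and 23 CPM. Flt3, often mutated in human acute myeloid leukaemia, was low at 6.95, 4.72, 3.82, 7.6 and 11.5 CPM. Replicate 3 was the lowest library for Kit, Il3ra, Csf1r and Flt3 but the highest for Csf2rb. Over the 28 expressed genes of the list it was lowest for 10 and highest for 6, beside 24% and 12.7% of all expressed genes. Epor, the receptor of the erythroid lineage, was below 1 CPM everywhere.

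Of 21 receptors for chemokines and chemoattractants 9 were expressed, close to the share of all identifiers (11276 of 27179). Cxcr4, which retains progenitors in the marrow, led at 379 ± 86.6 TPM and was at 160, 198, 114, 154 and 153 CPM, lowest in replicate 3. Ltb4r1, a leukotriene receptor, was at 106 ± 21 TPM, Ccr1 at 63.2 ± 11.7 TPM and the monocyte receptor Ccr2 at 48.5 ± 5.49 TPM. Cxcr3, Ccr7 and the complement receptor C3ar1 were below 1 CPM everywhere. Of 20 pattern-recognition receptors 13 were expressed, all at modest levels: Tlr1 at 66.6 ± 5.11 TPM, Tlr4 at 48.4 ± 14.7 TPM, Clec7a, the receptor for beta-glucans, at 30.8 ± 6.85 TPM, and Tlr6 at 22 ± 4.63 TPM. Tlr4 was at 95.3 CPM in replicate 3 and 49.4 to 57.7 CPM elsewhere.

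Among Fc receptors, Siglecs and lectins, 20 of 27 were expressed. Fcer1g, the signalling chain of activating Fc receptors, was at 165, 146, 153, 150 and 147 CPM (760 ± 33 TPM), a 1.13-fold range. Fcgr3 was at 580 ± 45.8 TPM, the inhibitory lectin Clec12a at 420 ± 86 TPM and Cd33 at 122 ± 31 TPM. Clec12a and Cd33 are targets of antibodies in human acute myeloid leukaemia, and their counts gave 532, 637, 384, 551 and 540 CPM for the first and 240, 282, 160, 199 and 197 CPM for the second. Both were highest in replicate 2 and lowest in replicate 3. Siglecf, an eosinophil marker, was at 110 ± 26.3 TPM.

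Of 23 leukaemia antigens and checkpoint genes, 13 were expressed. Besides Clec12a these were led by Cd47, the signal that restrains macrophages, at 325 ± 25.8 TPM, Lgals9, the ligand of Havcr2, at 311 ± 19 TPM, and Cd44 at 250 ± 30 TPM. Lgals9 was at 166, 151, 147, 151 and 145 CPM and Cd44 at 358, 435, 382, 386 and 369 CPM, and for Cd44 only replicate 2 lay away from the others. Havcr2, which encodes TIM-3, and Cd96 were below 1 CPM in all libraries, and Cd70 had no count in any.

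**Figure D4:**
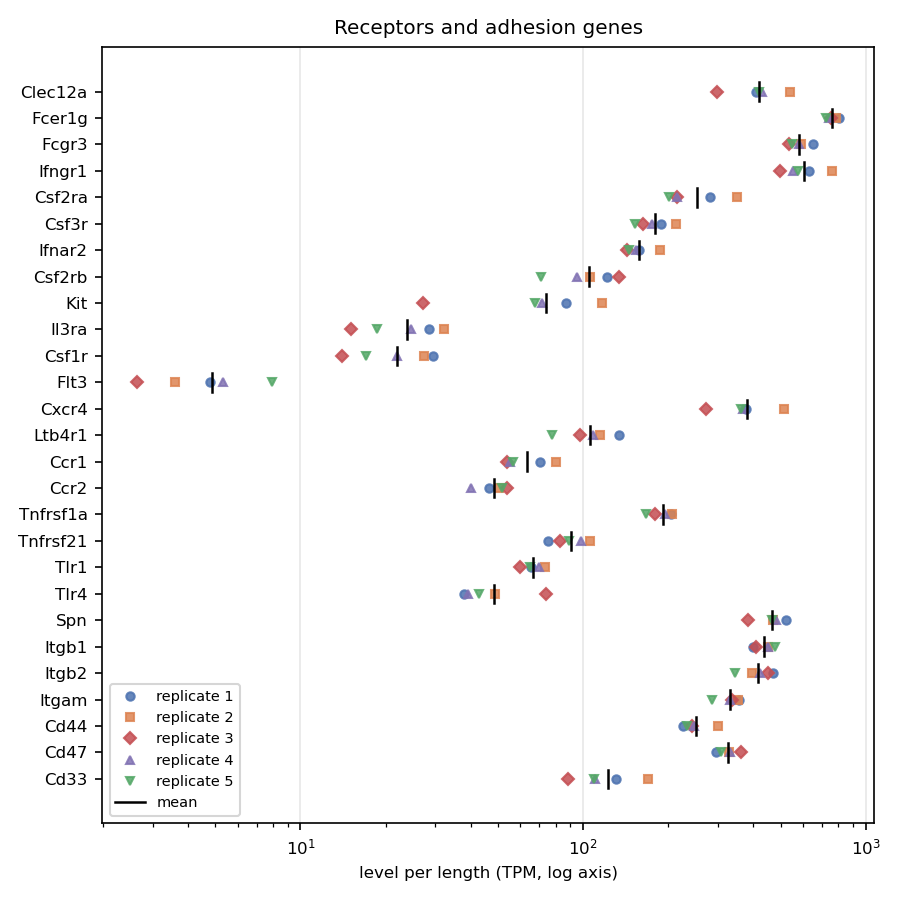
Level per length (TPM, log axis) of 27 receptor, antigen and adhesion genes with 1 point for each library and a bar at the mean. Fcer1g has the highest mean of those plotted at 760 TPM and Flt3 the lowest at 4.86 TPM, and replicate 3 is the lowest library for Kit, Il3ra, Csf1r and Flt3.

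Of 31 adhesion genes 27 were expressed, with sums of 4771, 4773, 4501, 4708 and 4817 CPM, a 1.07-fold range, though their median SD of log2(CPM + 0.5) of 0.23 was no smaller than the 0.20 of all expressed genes. Spn, the leukosialin of white cells, was at 465 ± 51.1 TPM, the integrin chains Itgb1 at 437 ± 32.4 TPM and Itgb2 at 417 ± 48.8 TPM, and Emb at 338 ± 42.4 TPM. The libraries of the first 3 overlap. Itgam, the alpha chain of Mac-1 (CD11b), was at 420, 377, 393, 386 and 334 CPM. Of 19 death and tumour necrosis factor receptors 15 were expressed, with Tnfrsf1a highest (191 ± 17.1 TPM), then Tnfrsf21 (90.3 ± 12.2 TPM), Ltbr (84.8 ± 12.3 TPM) and Tnfrsf1b (70.7 ± 10.2 TPM). Cd40 and Tnfrsf9, which act on antigen-presenting cells and T cells, were below 1 CPM everywhere.

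Several membrane proteins that act beside these receptors were more abundant than most of them. On the list of phosphatases and co-receptors 22 of 23 were expressed, led by Tyrobp, the adaptor DAP12, at 1396 ± 165 TPM, Evi2b at 983 ± 185 TPM, the tetraspanin Cd53 at 820 ± 90.6 TPM and Ly6e at 545 ± 89.2 TPM. Tyrobp was at 248, 200, 179, 231 and 208 CPM, and Evi2b at 391, 518, 391, 369 and 411 CPM, with replicate 2 apart. Nuclear receptors were lower, with 18 of 28 expressed and none above 78.8 TPM. The oxysterol receptor Nr1h2 led them, followed by Rxrb (72.1 ± 13.4 TPM), the glucocorticoid receptor Nr3c1 (61.3 ± 7.11 TPM) and Nr2c2 (29.4 ± 4.62 TPM). Rarb and Ppara were below 1 CPM everywhere.

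Genes of the cell cycle stood above the typical expressed gene. Their median mean level was 116 TPM for G1/S and 162 TPM for G2/M, beside 40.4 TPM for all expressed genes. All 26 G1/S genes and all 24 G2/M genes were expressed, with sums of 5537 to 6125 CPM and 7131 to 7838 CPM, ranges of 1.11-fold and 1.1-fold. Mki67, which labels dividing cells, was at 2450, 2478, 2254, 2151 and 2230 CPM. Per length it led the G2/M genes at 1006 ± 93.8 TPM, before Top2a, Ccnb2 (490 ± 40.1 TPM) and Ccna2 (290 ± 40.5 TPM). The replicative helicase genes Mcm6 (742 ± 63.2 TPM), Mcm4 (536 ± 31.3 TPM), Mcm3 (531 ± 38.1 TPM) and Mcm5 (518 ± 40 TPM) led the G1/S list, and the libraries of the last 3 overlap.

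Of 21 genes that handle cytarabine or doxorubicin, 15 were expressed. Top2a, the topoisomerase that doxorubicin poisons, led at 623 ± 44.5 TPM and was at 1261, 1310, 1209, 1265 and 1382 CPM. Rrm2 and Rrm1, the subunits of ribonucleotide reductase, which supplies the nucleotides that compete with cytarabine, were at 450 ± 33.5 TPM and 279 ± 12.2 TPM, and Top2b at 146 ± 21.8 TPM. Cda, the deaminase that inactivates cytarabine, and the carbonyl reductase Cbr3 were below 1 CPM in all libraries. Cda had no count in 3 libraries and at most 0.191 CPM in the others.

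Markers of other marrow cells were mostly low in these cells, which were sorted for GFP. Expressed members numbered 2 of 18 for T cells, 1 of 13 for natural killer cells, 2 of 12 for megakaryocytes and platelets, 2 of 15 for stroma and bone, 3 of 12 for endothelium and 3 of 14 for erythroid cells. The erythroid sum of 238 to 374 CPM was mostly the transferrin receptor Tfrc, at 285 ± 53.4 CPM, which dividing cells of many kinds express, while Hba-a1 and Hbb-bs, the globin genes, were at 3.42 ± 1.83 and 1.67 ± 1.25 CPM. Pecam1 at 27.7 ± 8.8 CPM made up most of the endothelial sum, and Cdh5 and Kdr, which define endothelium, were below 1 CPM. In the natural killer list Nkg7, which myeloid granules also contain, was at 10 ± 2.49 CPM and Prf1 below 1 CPM. The dendritic cell list had 8 of 16 expressed genes, led per length by Bst2 (114 ± 20.5 TPM). This share, and that of the next list, is no lower than that of all identifiers (11276 of 27179). The list of eosinophils, basophils and mast cells also had 8 of 19, led by Siglecf and the histidine decarboxylase Hdc (101 ± 19.7 TPM), while Il5ra of eosinophils was below 1 CPM.

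Immunoglobulin genes were the exception among these lists. The B cell sum was 126, 151, 487, 130 and 183 CPM, and 147 CPM on average without replicate 3, after 215 ± 153 CPM. Most of it was Ighm, the heavy chain of immunoglobulin M, named after its values were seen, at 87.6, 113, 328, 89.4 and 114 CPM. Jchain, the joining chain of secreted antibodies, was at 2.69, 3.54, 44.1, 3.95 and 9.28 CPM, and Igkc, the kappa light chain, at 9.57, 8.94, 96.4, 15.5 and 30.9 CPM. Replicate 3 was the highest library for all 3 and replicate 5 the second highest. Pax5, Ebf1 and Vpreb1, which define B cells and their precursors, were below 1 CPM in all libraries. Rag2 of the same list was expressed, at 5.47, 8.99, 3.59, 9.07 and 4.94 CPM, lowest in replicate 3. Of the B cell receptor chains, Cd79a was at 1.77, 0.506, 0.42, 0.765 and 1.21 CPM and Cd79b, expressed in every library, at 10.8, 8.32, 6.03, 8.42 and 10 CPM, and both were lowest in replicate 3. Without replicate 3 the mean of Jchain went from 12.7 to 4.87 CPM and that of Igkc from 32.3 to 16.2 CPM.

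The recipients were male, and the sex of the mouse from which the leukaemia came is not given in the sources used here. Xist, the RNA that coats the silent X chromosome of female cells, was at 2264, 4162, 1784, 2186 and 2264 CPM and ranked 10 of all identifiers by CPM. Of the Y-linked genes, Ddx3y was at 3.85 ± 1.7 CPM and Eif2s3y at 2.93, 1.12, 4.73, 1.83 and 5.24 CPM, Uty at 1.39 ± 0.667 CPM, Usp9y was below 1 CPM everywhere and Zfy1 had no count. Replicate 2 was highest for Xist and lowest for Ddx3y and Eif2s3y, and replicate 5 was highest for these 2 Y-linked genes.

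Genes that respond to sample handling had a median SD of log2(CPM + 0.5) of 0.33 for the immediate early list and 0.23 for the heat shock list, above the 0.20 of all expressed genes. This comparison is not matched for level, and genes that averaged 1 to 10 CPM had a median SD of 0.387. The immediate early list, whose genes rise when tissue is dissociated warm, had 10 of 19 expressed and sums of 157 to 198 CPM, led per length by Ier2 at 108 ± 7.86 TPM, and Fosb and Fosl1 were below 1 CPM. Heat shock genes summed to 4968 to 6639 CPM, a 1.34-fold range, most of it from Hsp90ab1, and the small heat shock gene Hspb1 was below 1 CPM. The sum hides wider ranges of low members. Hspa1b was at 3.52, 3.15, 1.11, 5.12 and 5 CPM (4.63-fold) and Hspa1a at 0.422 to 2.28 CPM (5.41-fold).

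Across all genes the libraries were close. Over the 12099 genes that averaged 1 CPM or more, Spearman's rank correlation between pairs of libraries was 0.980 to 0.991, lowest for replicates 2 and 3, as a description across genes, which are not independent. Every pair still differed by more than counting noise, with a chi-square per degree of freedom of 20.3 to 54.6, so no library is a repeat deposit of another. The common biological coefficient of variation, edgeR's estimate of the spread between replicates beyond counting error, was 17.8%. Of the 8941 genes that averaged 10 CPM or more, 61.5% had an SD of log2(CPM + 0.5) under 0.2 and 1.44% one over 0.5, with a median of 0.176. The median SD was 0.387 for genes between 1 and 10 CPM. Among the 12099 genes, 84 had an SD of at least 1, and 26 of the 84 averaged 10 CPM or more. The number was 129 without replicate 1, which has the largest total, and 77 to 98 without any other single library.

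The steadiest genes at a mean of at least 10 CPM were not those used as references. Ctbs, a lysosomal chitobiase, was at 28.7, 28.5, 28.6, 28.9 and 29.2 CPM, and the splicing factor gene Cdc40 at 135, 135, 134, 132 and 136 CPM. Fbxo5, an inhibitor of the anaphase-promoting complex, the ubiquitin ligase adaptor Klhl18, Swap70, the mismatch repair gene Msh6, Mtfr2, the arginine methyltransferase gene Prmt6, the nuclear pore gene Nup98 and Ndfip1 completed the 10, each with an SD of log2(CPM + 0.5) of at most 0.03. With 8941 genes ranked, the smallest spreads come partly from the ranking itself. The 14 expressed genes of the reference list had a median SD of 0.14, below the 0.20 of all expressed genes. That comparison is not matched for level either, with a median of 306 TPM for the reference genes and 40.4 TPM for all expressed genes. The reference genes Actb and B2m had an SD of 0.19 and 0.35, and Eef1a1 one of 0.09.

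**Figure D5:**
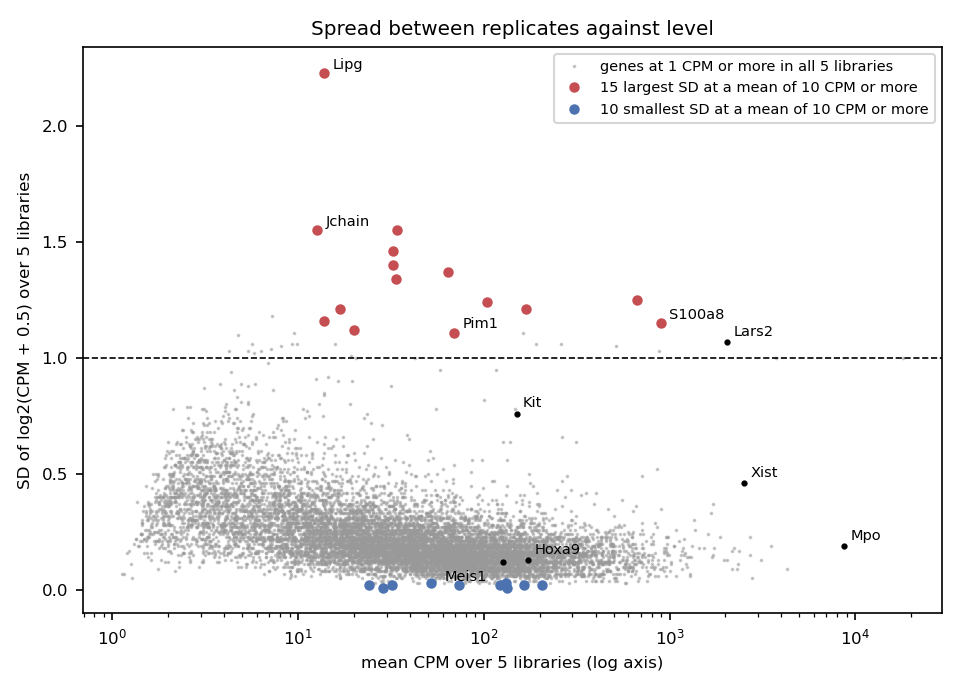
SD of log2(CPM + 0.5) over the 5 libraries against mean CPM (log axis) for 11276 expressed genes in grey, with the 15 largest and 10 smallest SDs at a mean of at least 10 CPM in red and blue and a dashed line at an SD of 1. Lipg has the largest SD at 2.23, and Hoxa9 and Meis1 lie among the steady genes at 0.13 and 0.12.

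The 15 genes with the largest spread at that level were led by Lipg, endothelial lipase, at 9.34, 0.112, 44.6, 7.3 and 7.84 CPM, with 2 counts in replicate 2. A family of neutrophil cystatins, the stefin A genes and their relatives on chromosome 16, gave 7 of the others. Stfa1 was at 79.4, 47.3, 453, 127 and 139 CPM and Cstdc5 at 52.3, 27.1, 287, 79.9 and 76.4 CPM, each highest in replicate 3 and lowest in replicate 2. Stfa2, Stfa2l1, Stfa3, Cstdc4 and Cstdc6 had the same highest and lowest libraries, and since these genes are close copies of each other, the split of reads between them is uncertain. Ifitm6, an interferon-induced membrane protein gene, was at 25.1, 4.27, 95.5, 18.1 and 28 CPM, and Lilrb4a, an inhibitory receptor of myeloid cells, at 16.2, 4.33, 43.3, 7.18 and 13.3 CPM. Pim1, a kinase induced by cytokine signalling, was at 52.2, 27.8, 190, 46.5 and 29.5 CPM. S100a8, Jchain, Igkc and identifier 100628626 completed the 15. Replicate 3 set much of these means. Without it the mean of Lipg went from 13.8 to 6.15 CPM, that of Ifitm6 from 34.2 to 18.9 CPM, that of Lilrb4a from 16.9 to 10.2 CPM and that of Pim1 from 69.2 to 39 CPM. The stefin A genes went from 169 to 98.3 CPM for Stfa1, from 32.6 to 15.4 CPM for Stfa2, from 33.6 to 17.7 CPM for Stfa2l1 and from 20 to 13.1 CPM for Stfa3. Their relatives went from 64.2 to 32.7 CPM for Cstdc4, from 104 to 58.9 CPM for Cstdc5 and from 13.7 to 7.65 CPM for Cstdc6, and Jchain and Igkc moved as given with the B cell genes, to 4.87 and 16.2 CPM.

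Each library had its own largest deviations from the median of the other 4. Replicate 3 had 38 genes at least 2-fold above that median and 20 at least 2-fold below it, among 8941 genes, and replicate 2 had 21 above and 39 below. Replicates 1, 4 and 5 had 0, 2 and 4 genes above and 14, 8 and 9 below. In replicate 1 the lowest were Bc1, a small cytoplasmic RNA, at 6.08 CPM against 22.5 CPM, and Frmd7 at 21.4 against 60.7 CPM. In replicate 2 they were Lipg, Ifitm6, Wfdc21, Ngp and Ltf, all lower than elsewhere, and Wfdc21, Ngp and Ltf are on the secondary granule and mature neutrophil list. Those of replicate 3 were Jchain, Igkc, Stfa2, Lipg and Cstdc4, all higher. In replicate 4 they were modest and downward, led after an unnamed identifier by Zfp758 at 11.1 against 27.4 CPM, and included Gpr146, Fbxo48 and the X-linked noncoding RNA gene Firre. Replicate 5 was low for 4 identifiers without a symbol and for Lars2, the mitochondrial leucyl-tRNA synthetase gene, at 1496, 4183, 1330, 2599 and 589 CPM. Identifier 100628626 took the same order over the libraries, at 452, 1416, 421, 906 and 144 CPM. So did identifier 100628579, at 122, 321, 103, 226 and 43.6 CPM. Which RNA gave the reads counted for Lars2 and for the unnamed identifiers was not tested, so the Lars2 level and range are uncertain.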

How the data were processed

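Gene counts for 5 libraries of sorted leukaemia cells were used as the authors deposited them: whole-number counts per gene identifier, not normalized. RNA was selected by poly(A) and sequenced as paired 38-base reads, per the labels' protocols. The mm10 build, Cell Ranger and featureCounts are named in the submitters' processing notes, without versions or roles. For the aligner, the strand setting and multiply matching reads, the entry is "not given in the sources used here". Identifiers were paired with symbols for 25275 of 27179, and those without a symbol held 1.71% to 4.12% of a library's counts.

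CPM used each library's unscaled total, from 16588662 to 38966911 counts. TPM used the union of exons in GENCODE M21. Spread is the SD of log2(CPM + 0.5). The biological coefficient of variation came from edgeR 4.0.16 in R 4.3.3. It was also run on counts simulated from its own estimate, which cannot show how accurate that estimate is for these libraries. DESeq2 1.42.0 gave alternative size factors only. No groups were compared and no p-value was computed. Nothing but the label says that the libraries come from separate mice.

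The members and the 37 gene lists were chosen with earlier results of these data known. Named are the 20 highest genes in CPM and in TPM, per list the 4 highest members per length and up to 3 below 1 CPM everywhere, the 15 most and 10 least variable genes at a mean of at least 10 CPM, the 5 largest deviations of each library, and 22 fixed genes. Alternatives covered scaling, pseudocount, filters and leaving out each library.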

Additional observations from a re-analysis of the deposited data

Results flagged for a closer look

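In 27 of 238 sums and levels examined, 1 library lay far from the other 4, with a gap to its neighbour of more than 0.71 of the whole range. Chance gives about 1 in 20 for values not chosen by their spread, but 13 of the 27 belong to genes that were named for a large or small spread or a large deviation, so the 2 rates cannot be set against each other. No cause was tested.

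Replicate 3 was the high library in 15 of them. Its B cell sum was 487 CPM (126 to 183 CPM elsewhere). The cystatin genes were at 453 CPM for Stfa1, 102 CPM for Stfa2, 97.3 CPM for Stfa2l1, 190 CPM for Cstdc4, 287 CPM for Cstdc5 and 37.9 CPM for Cstdc6, and reads of such close copies may be split unevenly. Lipg was at 44.6 CPM, Ifitm6 at 95.5 CPM, Igkc at 96.4 CPM and Jchain at 44.1 CPM. Pim1 was at 190 CPM (27.8 to 52.2 CPM elsewhere), Tlr4 at 95.3 CPM, and Junb, an AP-1 subunit, at 28.5 CPM (15.7 to 18.5 CPM elsewhere). Klhl18 was at 24.7 CPM against 23.8 to 24 CPM, a small gap in one of the steadiest genes. Cd34 was low there, at 62.8 CPM against 146 to 155 CPM.

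Replicate 2 was high for the HoxA sum at 569 CPM, Hoxa5 at 132 CPM, Xist at 4162 CPM, the sex-linked sum at 4168 CPM, which is almost all Xist, and Evi2b at 518 CPM (369 to 411 CPM elsewhere). It was low for Rrm1 at 607 CPM (707 to 742 CPM elsewhere) and Prmt6 at 31.1 CPM (32 to 32.4 CPM elsewhere).

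The other libraries gave 4 values. Eef2, a translation elongation factor, was at 2733 CPM in replicate 1 and 1986 to 2172 CPM elsewhere. Apoe, a lipid carrier of macrophages, was at 11.7 CPM in replicate 4 and 16 to 17.6 CPM elsewhere. In replicate 5 Car2, an erythroid carbonic anhydrase, was at 14.5 CPM against 4.33 to 5.9 CPM, and the drug handling sum was 3604 CPM against 3336 to 3361 CPM.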

How the results depend on the processing

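The number of widely varying genes, 84 with a pseudocount of 0.5 CPM, depended most on the settings: it was 226 with a pseudocount of 0.1 CPM, 26 with a pseudocount of 2 CPM or a mean of at least 10 CPM, and 77 to 129 when 1 library was left out, with 129 without replicate 1. The biological coefficient of variation of 17.8% became 22.7% without a filter, 15% at a mean of at least 10 CPM, and 16.5% to 18.8% without 1 library. The share of the 100 most abundant identifiers, 15.9%, was 14.2% over named identifiers only, and 15.7% to 16.3% without 1 library. Of 942 gene levels and list sums recomputed with other scaling, 12 moved by more than 1 SD, all with the total over named identifiers. Leaving out 1 library moved 13 of the 230 levels and sums of at least 1 CPM by over 1.5 times, all of them lower without replicate 3 and given with the most variable genes. No paired analysis was possible because 1 group was described and nothing was compared.

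Depth limits the lowest levels: 3 counts correspond to 0.077 to 0.181 CPM, and a gene below this may be expressed. At the shallowest library's depth the mean number of genes with a count fell from 15900 to 15634. Exon length, not effective transcript length, sets the order between genes.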
